A study of Homo sapiens with 2 samples.

Results

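Mitochondrial respiration relies on 5 protein complexes, most of whose subunits are encoded in the nucleus. The genes described here are the protein-coding genes with the symbols of such subunits: NDUFA, NDUFB, NDUFC, NDUFS and NDUFV genes for complex I, SDHA to SDHD for complex II, CYC1 and the UQCR genes for complex III, the COX4 to COX8 genes for complex IV, and the ATP5 genes for complex V. A gene was included when at least 1 probe set named it alone. This gave 78 genes of the 18392 read by a probe set of their own: 33 in complex I, 3 in complex II, 7 in complex III, 17 in complex IV and 18 in complex V. RNA of PC3 cells, a human line from a bone metastasis of prostate cancer, was hybridised to 2 expression arrays. One array read cells treated with DMSO, the solvent, and the second read cells treated with 10 µM fluphenazine, a phenothiazine antipsychotic. Each condition has a single array, hence the spread among cultures is unknown, values carry no replicate error, and no test was made. Differences are log2 signals with fluphenazine less those with DMSO and describe these 2 arrays. In bulk RNA, fewer cells holding a transcript and less of it per cell cannot be told apart.

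Complex I takes electrons from NADH and complex II takes them from succinate. Both hand them to ubiquinone, from which complex III passes them through cytochrome c to complex IV, where oxygen is reduced. Complexes I, III and IV pump protons across the inner mitochondrial membrane, and complex V, the ATP synthase, uses their return to make ATP. Some hydrophobic subunits are encoded in mitochondrial DNA, and complex II has none of these. The transcription factors NRF1 and GABPA are known to bind promoters of many nuclear subunit genes.

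The promoters of 4 subunit genes are shown because these genes lead complexes I, II and III in the results. Each is the run of 250 bases before the transcription start in RefSeq's GRCh38.p14 annotation, read 5′ to 3′ on the gene's strand. Capitals mark matches, on either strand, to the NRF1 motif CGCANGCG or the GABPA motif CCGGAAG. The SDHA run lies at chr5:218070-218319 on the plus strand, NDUFV1 at chr11:67606686-67606935 on the plus strand, UQCRC1 at chr3:48609647-48609896 on the minus strand and NDUFB7 at chr19:14572067-14572316 on the minus strand.
SDHA: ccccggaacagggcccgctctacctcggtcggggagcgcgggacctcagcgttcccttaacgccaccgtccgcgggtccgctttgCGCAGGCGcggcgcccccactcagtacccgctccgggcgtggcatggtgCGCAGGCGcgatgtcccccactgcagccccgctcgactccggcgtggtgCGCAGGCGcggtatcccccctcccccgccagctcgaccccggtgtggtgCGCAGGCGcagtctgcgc
NDUFV1: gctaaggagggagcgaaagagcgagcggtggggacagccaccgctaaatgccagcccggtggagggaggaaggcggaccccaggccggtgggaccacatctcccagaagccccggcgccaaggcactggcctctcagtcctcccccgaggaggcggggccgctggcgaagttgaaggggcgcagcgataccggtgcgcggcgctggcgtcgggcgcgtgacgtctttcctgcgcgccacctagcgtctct
UQCRC1: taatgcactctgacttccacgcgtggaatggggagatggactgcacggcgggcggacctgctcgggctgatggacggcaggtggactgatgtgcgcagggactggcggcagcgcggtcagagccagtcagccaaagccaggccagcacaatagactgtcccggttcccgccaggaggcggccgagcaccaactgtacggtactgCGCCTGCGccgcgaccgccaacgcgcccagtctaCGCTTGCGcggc
NDUFB7: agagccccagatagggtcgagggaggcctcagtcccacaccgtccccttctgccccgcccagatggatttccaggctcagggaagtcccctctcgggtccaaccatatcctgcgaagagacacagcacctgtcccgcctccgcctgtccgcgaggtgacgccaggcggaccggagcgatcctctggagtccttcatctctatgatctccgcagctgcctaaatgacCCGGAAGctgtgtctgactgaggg
The SDHA run held 4 matches to the NRF1 motif and the UQCRC1 run held 2. The NDUFB7 run held 1 match to the GABPA motif, and the NDUFV1 run held no match to either. A match is a description of letters and not a binding site.

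A gene was taken as measurable when the higher of its 2 log2 values was at least 6.19, which is where the middle gene lies on that measure. Of the 78 subunit genes 71 passed, with mean signals from 8.85 to 13.39. The 7 that did not were COX4I2, COX6A2, COX6B2, COX7A1, COX7B2 and COX8C, isoforms of complex IV subunits known from specialised tissues such as muscle, lung and testis, and ATP5MF. Their DMSO signals ranged from 2.67 to 4.42. ATP5MF has 1 dim probe set of its own; a bright one that it shares with ARMC2-AS1 read 11.75 and 11.66. The epithelial markers KRT18, KRT19, EPCAM and CDH1 had DMSO values between 12.08 and 12.69, and KRT8 went from 9.70 to 9.28. Of 7 markers of blood, endothelial and fibroblast cells, 5 were under the limit; PECAM1 (8.76 and 8.49) and COL1A1 (8.33 and 8.33) were above it.

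Subunit genes were mostly lower with fluphenazine, and by little. Of the 71 genes 57 were lower, which is 80.3%, against 51.8% of all 9196 measurable genes. Their median difference was -0.071, or 1.05-fold lower, and that of all genes was -0.0069. At least 1.1-fold lower were 19 subunit genes, or 26.8%, against 18.2% of all genes. NDUFA5 alone was at least 1.1-fold higher, where 16.6% of all genes were. With each array centred on the median of all probe sets 51 were lower, since NDUFV2, NDUFB6, SDHD, UQCRB, ATP5F1E and ATP5PO, all just under 0, then came out above it. At 1.2-fold, NDUFB7, SDHA, NDUFV1 and NDUFB10 were lower and NDUFA5 was higher, or 4 and 1 of the 71. Of all genes 4.69% were at least 1.2-fold lower, which is near the share of the subunit genes, and 4.84% higher. Probe sets of the same gene differed from each other with a pooled SD of 0.11 over the 22 subunit genes that have several, so many single differences are no larger than that spread. Of those 22 genes, 14 were lower by every probe set and 8 had probe sets on both sides of 0.

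**Figure D1:**
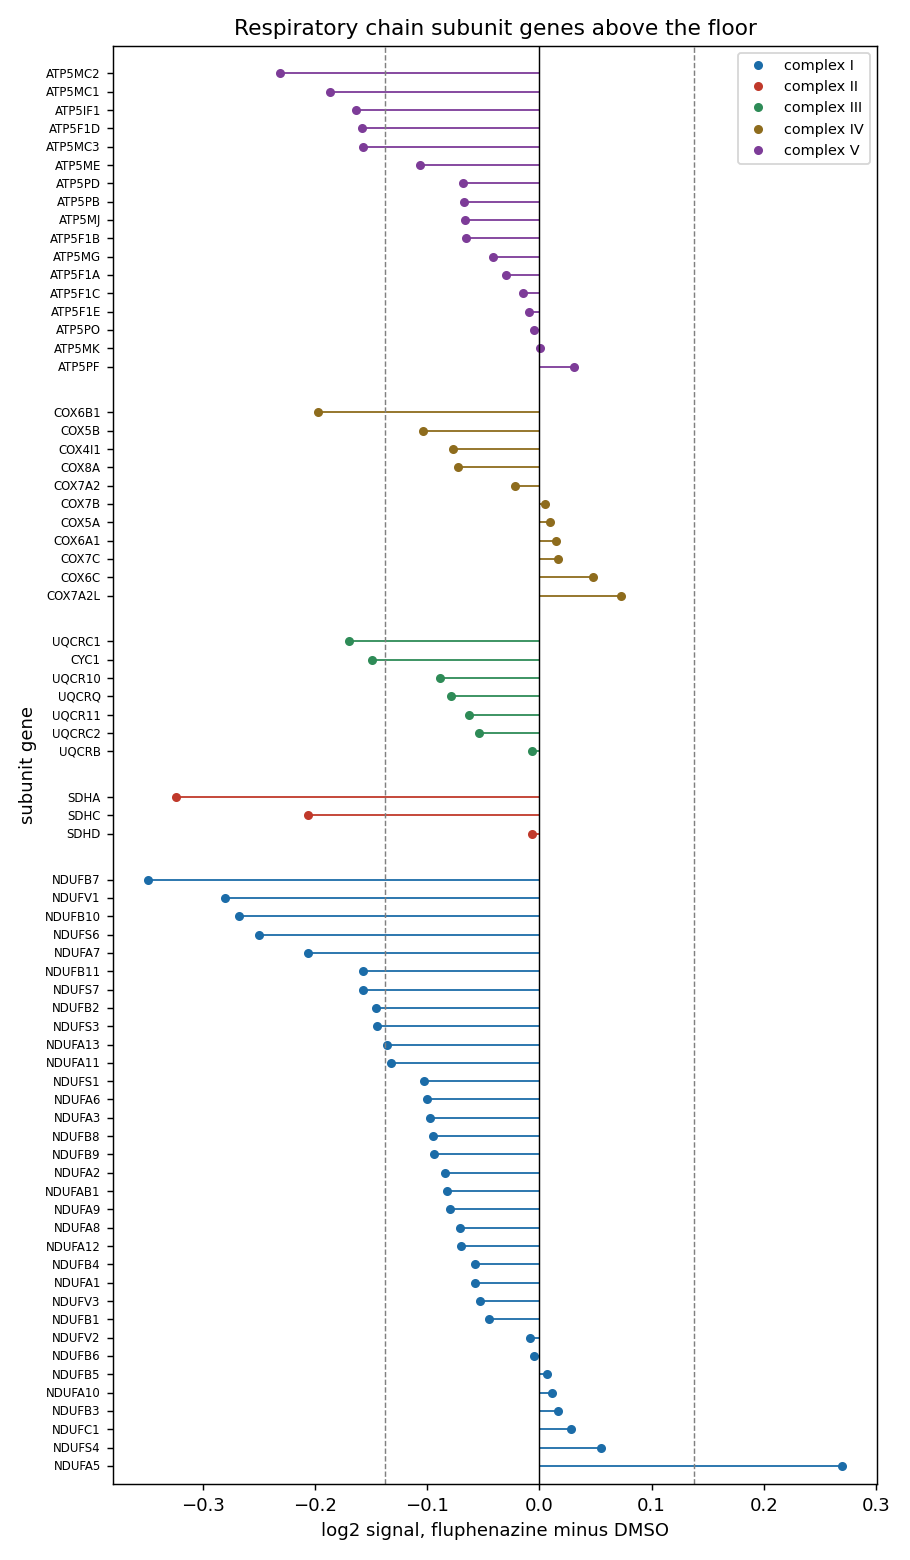
Log2 difference, fluphenazine minus DMSO (x axis), of the 71 measurable subunit genes, 1 point per gene, coloured by complex. Dashed lines mark 1.1-fold; 57 points lie left of 0, and complex IV has 5 on the left and 6 on the right.

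In complex I, 27 of 33 genes were lower, with a median of -0.084. The largest difference of any subunit gene was that of NDUFB7, an accessory subunit of the membrane arm, at 10.46 with DMSO against 10.11 with the drug, or 1.27-fold. NDUFV1, which binds the flavin that accepts electrons from NADH, read 10.73 and 10.45, or 1.21-fold. NDUFB10, another membrane arm subunit, read 10.75 and 10.48, and its probe sets lay at -0.27 and -0.19. In each of these 3 genes the fluphenazine array was the lower one by at least 1.2-fold.

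NDUFS6, a zinc-binding subunit of the arm that oxidises NADH, read 11.50 with DMSO and 11.25 with fluphenazine, and the accessory subunit NDUFA7 read 10.23 and 10.02. The remaining genes past 1.1-fold were NDUFB11 at -0.16, NDUFS7, which holds the iron-sulfur cluster next to ubiquinone, at -0.16, NDUFB2 at -0.15 and the core subunit NDUFS3 at -0.14. Just inside the limit were NDUFA13 at -0.14 and NDUFA11 at -0.13. A probe set that NDUFS3 shares with PTPMT1 gave -0.079. NDUFS1, at 9.69 and 9.58, and NDUFV2, at 11.17 and 11.16, carry iron-sulfur clusters and differed less.

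NDUFA5, an accessory subunit of the arm that reduces ubiquinone, went the other way. Its single probe set read 9.89 with DMSO and 10.16 with fluphenazine, or 1.21-fold higher. NDUFS4 was next among the higher genes at 0.055. By region, 7 of 8 genes of the NADH-oxidising module were lower (median -0.077), 2 of 3 of the ubiquinone-reducing module (median -0.14) and 14 of 18 of the membrane arm (median -0.082). The lists of regions do not hold NDUFA6, NDUFA7, NDUFA9 and NDUFAB1, at -0.10, -0.21, -0.08 and -0.082. The 5 measured core subunits, NDUFV1, NDUFV2, NDUFS1, NDUFS3 and NDUFS7, were all lower, NDUFV2 by no more than the centring of the arrays moves it, with a median of -0.14. NDUFS8, a core subunit whose probe sets also name the microRNA genes MIR7113 and MIR4691, read 10.80 and 10.69 on the brightest of them.

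Complex II had 3 measured genes, all lower except that SDHD was above 0 with arrays centred on all probe sets. The median of complex II, -0.21, depended on the choice of probe set. SDHB is not among the 78 genes. SDHA, the flavin-binding subunit that oxidises succinate, read 10.56 with DMSO and 10.23 with fluphenazine, or 1.25-fold lower. It has 1 probe set of its own, whose suffix marks probes that may match several transcripts. A dimmer one shared with 3 SDHA pseudogenes read 6.49 and 6.39. SDHC, a membrane anchor that helps to hold a heme, read 10.79 and 10.59 on its brightest probe set. Its 6 measurable probe sets ranged from -0.21 to 0.38 and averaged -0.0065, so SDHC has no settled direction. SDHD, the other anchor, read 10.96 and 10.95. With probe sets averaged the median of complex II was -0.0066.

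In complex III all 7 measured genes were lower, UQCRB only without centring on all probe sets, and the median was -0.079. UQCRFS1 is not among the 78 genes. UQCRC1, a core protein on the matrix side, read 10.55 with DMSO and 10.38 with fluphenazine, and CYC1, the heme-bearing cytochrome c1, read 11.66 and 11.51. UQCRC2, the partner of UQCRC1, read 10.92 and 10.87, with probe sets at -0.054 and 0.0092. UQCR10, UQCRQ and UQCR11, small subunits, lay at -0.089, -0.079 and -0.063. The smallest difference was that of UQCRB at -0.0064, with 3 probe sets from -0.051 to -0.0064. UQCRH, which shares its probe set with UQCRHL, read 12.31 and 12.32.

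Complex IV lay around 0. Of 11 measurable genes 5 were lower and 6 higher, with a median of 0.0046, whose sign changed with the processing. COX6B1, which faces the intermembrane space, was the only gene past 1.1-fold, at 11.12 with DMSO and 10.93 with fluphenazine. COX5B, which binds zinc, was at -0.10, with 4 probe sets from -0.10 to 0.19. COX4I1, which joins the enzyme early in its assembly, read 12.70 and 12.62. The higher genes differed little: COX7B, COX5A, COX6A1 and COX7C lay between 0.0046 and 0.017, COX6C at 0.047 and COX7A2L, a factor of supercomplexes, at 0.073. The other complexes together had 52 of 60 genes lower and a median of -0.079. The difference between complex IV and the others was not tested.

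Bright genes differed less between the arrays, and complex IV genes are bright. At a mean log2 signal of 12 or over, a limit chosen after the data were seen, 5.19% of 270 genes were at least 1.1-fold lower, against 18.6% under it. Among these bright genes 3 of 7 complex IV genes were lower (median 0.0046) and 11 of 12 genes of the other complexes (median -0.05), against 49.6% of all genes. Under the limit 2 of 4 and 41 of 48 were lower, with medians of -0.047 and -0.086, against 51.8% of all genes. The brightest of 4 equal groups by signal held 65 subunit genes. Of these 52 were lower and 16 at least 1.1-fold lower, where 47.8% and 11.7% of all its genes were. In that group 5 of 11 complex IV genes and 47 of 54 others were lower.

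**Figure D2:**
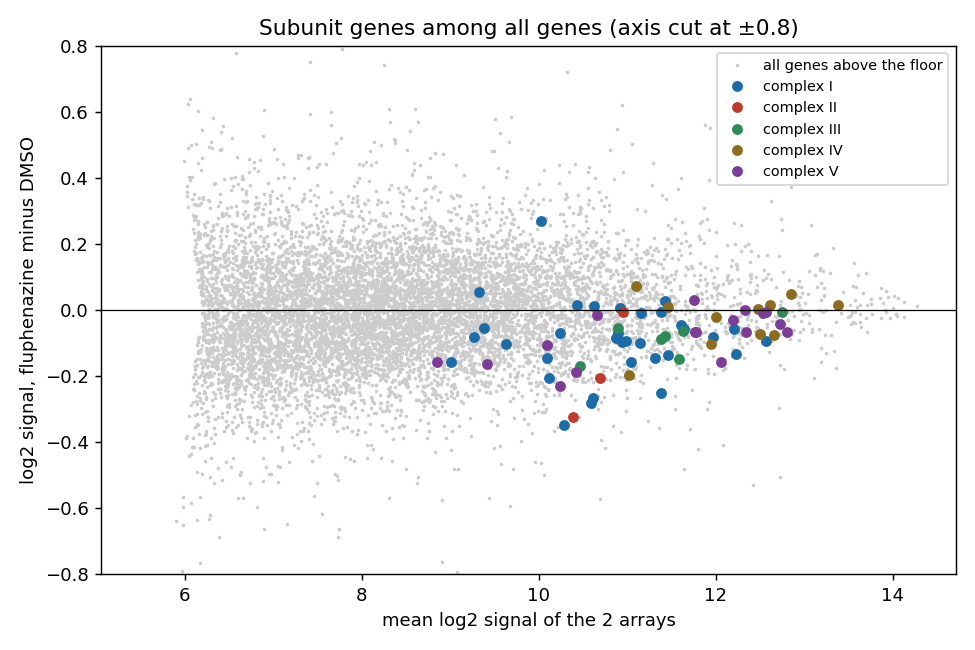
Log2 difference, fluphenazine minus DMSO, against the mean log2 signal of the 2 arrays. Grey points are the 9196 measurable genes, a few of which fall outside the y axis, and coloured points the 71 subunit genes by complex, which lie at mean signals of 8.85 to 13.39 and mostly under 0.

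Complex V had 15 of 17 genes lower, with a median of -0.066. This median was -0.013 over the 8 genes with a measurable probe set of plain suffix, which lacks the marks for probes that match several transcripts, and -0.024 relative to genes of like span. ATP5MC1, ATP5MC2 and ATP5MC3 encode the same mature protein, which forms the proton-carrying ring in the membrane, and all 3 were past 1.1-fold. ATP5MC2 read 10.36 with DMSO and 10.12 with fluphenazine, ATP5MC1 read 10.51 and 10.33, and ATP5MC3 read 12.14 and 11.98. The 3 probe sets of ATP5MC3 lay between -0.19 and -0.13. ATP5IF1, which inhibits ATP hydrolysis by the enzyme, read 9.49 and 9.33, with 3 probe sets from -0.16 to 0.022. Of the measurable membrane genes 6 of 7 were lower, with a median of -0.11.

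The F1 head, which makes the ATP, had a median of -0.03. ATP5F1A and ATP5F1B, which form its catalytic hexamer, were at -0.03 and -0.065, ATP5F1C at -0.014 and ATP5F1E at -0.0091. ATP5F1D read 8.93 and 8.77, and its probe sets lay at -0.16 and -0.13. In the peripheral stalk 3 of 4 genes were lower (median -0.036) and none was past 1.1-fold; ATP5PF, at 0.031, was the highest gene of the complex.

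The 8 measured genes whose products hold or help to hold a flavin, an iron-sulfur cluster or a heme were NDUFV1, NDUFV2, NDUFS1, NDUFS7, SDHA, SDHC, SDHD and CYC1. The group is not complete, since NDUFS8, SDHB and UQCRFS1 also belong to it and are not among the 78 genes. All 8 were lower on their brightest probe sets, with a median of -0.15, where 51.8% of all genes were; SDHD at -0.0066 and NDUFV2 at -0.0082 came out above 0 with arrays centred on all probe sets. At least 1.1-fold lower were 5 of the 8, against 18.2% of all genes. SDHC and NDUFS1 also had probe sets above 0; that of NDUFS1 gave 0.025.

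Subunit genes are short, and on these arrays short genes were lower as a whole. Genomic span, from the start to the end of a gene in RefSeq, had a median of 10460 bases in subunit genes and 30765 bases in all genes. With genes in 4 equal groups by span, those up to 12660 bases had a median of -0.042 and 62.8% were lower; those above 71532 bases had a median of 0.037 and 40.8%. The 46 subunit genes of the shortest group had a median of -0.086, with 40 lower. In the next group 11 of 15 were lower (median -0.053, against -0.028 for all genes), and in the third 6 of 8 (median -0.075, against 0.012). Both subunit genes of the longest group, NDUFA10 and NDUFS4, were higher.

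Relative to the median of genes of like span, a comparison chosen after the data were seen, the subunit genes had a median of -0.036. Then 50 of 71 were lower, and 10 in place of 19 were at least 1.1-fold lower. In that setting all genes are centred on the median of their own group. Their share at least 1.1-fold lower was not computed there, and without that step it was 18.2%. Complex I was then at -0.055, complex II at -0.22, complex III at -0.036, complex IV at 0.037 and complex V at -0.024. In the shortest group 35 of 38 genes of the other complexes were lower (median -0.094), and 5 of 8 of complex IV (median -0.047). The part of span in the difference was not tested.

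**Figure D3:**
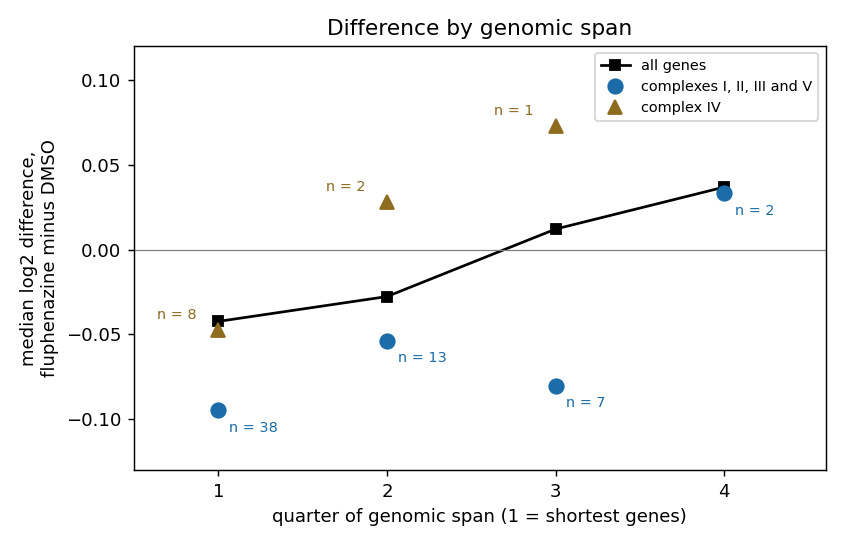
Median log2 difference, fluphenazine minus DMSO, in 4 equal groups of genes by genomic span, shortest first. Squares are all measurable genes, circles the subunit genes of complexes I, II, III and V and triangles those of complex IV, with numbers of genes; the squares go from -0.042 to 0.037, and the circle for 38 short genes lies at -0.094.

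Genes of chromosome 19 were also lower as a whole. The 548 measurable genes there had a median of -0.07, and its 9 subunit genes, NDUFB7 and COX6B1 among them, were all lower with a median of -0.16. On other chromosomes 48 of 62 subunit genes were lower, with a median of -0.067.

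A promoter run was matched for 62 of the 71 genes, and 24 of them, or 38.7%, held the NRF1 motif on either strand. This was so for 21.4% of the 7699 measurable genes with a run. A gene was counted when any of its runs held the motif. Counted per single run, which is a different unit, the share was 8.70% of all 35093 runs in the RefSeq table. The median difference of subunit genes was -0.07 with the motif and -0.07 without it. The GABPA motif was in 25.8% of subunit genes and 20.8% of measurable genes. For the YY1 motif AAGATGG the shares were 8.06% and 4.75%, and for the SP1 motif GGGCGG 62.9% and 76.7%. In complex IV 1 of 10 genes held the NRF1 motif, in complex I 12 of 31, in complex II 2 of 2, in complex III 2 of 5 and in complex V 7 of 14. The order was not the same for the GABPA motif. It was in 4 of 10 genes of complex IV, 5 of 31 of complex I and 1 of 2 of complex II. In complex III it was in 2 of 5 and in complex V in 4 of 14.

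Mitochondrially encoded subunits went the other way from the nuclear ones. Of 7 such genes 5 were measurable, and all 5 were higher with fluphenazine, with a median of 0.082. Of all 9196 measurable genes 4428 were higher. At least 1.1-fold higher were 2 of the 5, against 16.6% of all genes. ATP6, the proton channel subunit of complex V, read 10.80 with DMSO and 11.30 with fluphenazine, and ND4, a proton-pumping subunit of complex I, read 12.03 and 12.23. COX1, the catalytic subunit of complex IV, was at 0.082, ND2 at 0.065 and COX2 at 0.016. These last differences are smaller than the pooled SD of 0.11 between probe sets of subunit genes. Mitochondrially encoded transcripts are cut from shared precursors and are not independent readings.

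Assembly factors, which build the complexes without staying in them, were lower in 34 of 51 genes, with a median of -0.065. That is 66.7%, against 51.8% of all genes. At least 1.1-fold lower were 8 of them, or 15.7%, no more than the 18.2% of all genes, and NDUFAF4 and CMC1 were at least 1.1-fold higher, where 16.6% of all genes were. For complex I 12 of 16 were lower (median -0.071), with NDUFAF3 at -0.27, NDUFAF7 at -0.21 and NDUFAF8 at -0.19. For complex IV 13 of 21, or 61.9%, were lower (median -0.048), with COX15, needed to make its heme, at -0.28. Factors of complex III had a median of -0.035 over 5 genes, with UQCC3 at -0.10. Those of complex II had 3 of 4 higher and a median of 0.047, with SDHAF4 at 0.14. For complex V 4 of 5 were lower; DMAC2L was at -0.65 on its brightest probe set, with others up to 0.072.

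Electron carriers and coenzyme Q genes were lower in 12 of 17, with a median of -0.051, where 51.8% of all genes were lower. At least 1.1-fold lower were 3 of the 17, or 17.6%, no more than the 18.2% of all genes. ETFB, which carries electrons from fatty acid oxidation, was at -0.20, COQ6, an enzyme of coenzyme Q synthesis, at -0.20 and COQ10B at 0.18. Enzymes of pyruvate oxidation and the tricarboxylic acid cycle had 10 of 15 lower and a median of -0.073. At least 1.1-fold lower were 2 of the 15, or 13.3%, also no more than the share of all genes. Among the 15 enzymes IDH2 was at -0.21 and IDH3G at -0.19 with a second probe set at 0.08. SUCLG2 was at 0.30 with probe sets from 0.059 to 0.30.

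Regulators of mitochondrial biogenesis were lower in 7 of 9 genes (median -0.076), where 51.8% of all genes were. ESRRA at -0.002 and TFB2M at -0.0067 would come out above 0 with arrays centred on all probe sets. At least 1.1-fold lower was 1 of the 9, or 11.1%, against 18.2% of all genes. TFB1M and TFAM, which act in mitochondrial DNA expression, were at -0.22 and -0.14. TFB1M had a second probe set at -0.063, and the 3 probe sets of TFAM ranged from -0.40 to 0.071. GABPA, at 0.13, had a second probe set at -0.35. PPARGC1A, PPARGC1B and NRF1 were under the limit. Carriers and channels of the mitochondrial membranes were lower in 7 of 8 genes (median -0.075), against the same 51.8% of all genes. UCP2 was at -0.23, SLC25A1 at -0.12 and VDAC3 at -0.10, the last with a second probe set at 0.0089. At least 1.1-fold lower was 1 of the 8, or 12.5%, no more than the 18.2% of all genes. Of the supercomplex factors, HIGD2A was at -0.17 and HIGD1A at -0.067, each with another probe set above 0, at 0.26 and 0.15.

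**Figure D4:**
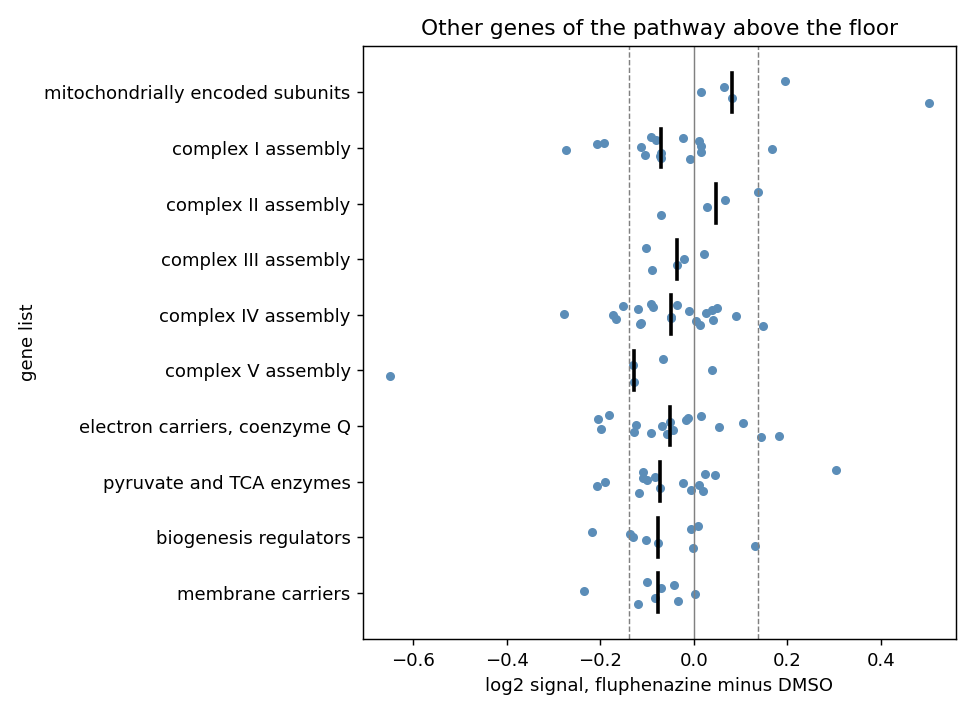
Log2 difference, fluphenazine minus DMSO (x axis), of measurable genes in other lists of the pathway, 1 point per gene on its brightest probe set. Black bars are list medians and dashed lines mark 1.1-fold; the mitochondrially encoded subunits and the complex II assembly factors have medians above 0, at 0.082 and 0.047.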

How the data were processed

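The deposited values are read as log2 signals per probe set, from their range of 1.60 to 14.28. The submitters' processing notes name RMA, Transcriptome Analysis Console 3.1 and Expression Console 1.4; their roles are not given in the sources used here. After sorting, the arrays differed by at most 0.13, so a shift common to most genes cannot be seen. The number of arrays limits the precision.

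Of 47693 probe sets, 37145 named exactly 1 gene in the platform annotation of 2016; the 1668 naming several were left out of the main counts. Gene identifiers of 18354 of 18392 genes matched RefSeq, the source of symbol, biotype, span and promoter. Each gene took its brightest probe set. Pseudogenes and non-coding genes were left out.

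The members, lists, thresholds and motifs were chosen with earlier results of these data known. Named genes are those past 1.1-fold, the extremes of each complex, cofactor, core and F1 subunits, and up to 3 per other list; further ones were chosen after their values were seen. Calculations were tested on simulated data. Python 3.11.15, numpy 2.4.6, pandas 2.3.3 and limma 3.58.1 (quantile normalization) in R 4.3.3 were used.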

Additional observations from a re-analysis of the deposited data

How the results depend on the processing

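No paired analysis was possible because each treatment has 1 array, and for the same reason no array could be left out. Medians were compared within the probe-set SD of 0.13 divided by the root of the number of genes, and counts within 1.5 times. By that measure the 6 medians and 3 counts held with arrays centred on the genes analysed or on all probe sets, quantile normalization, and COXFA4 (formerly NDUFA4) added to complex IV; so they did with genes on shared probe sets added and relative to genes of like signal, both chosen after the data were seen. Either centring shifts every difference by 1 constant smaller than the tolerance of any median, so only the counts could change there. The setting of like signal comes close to the same, since 65 of the 71 genes lie in the brightest of its 4 groups. Adding COXFA4 cannot move the medians of complexes I, II, III and V. A stricter limit of 8.43, the annotation's symbols and leaving out tissue-restricted isoforms changed no gene of the 71 and so tested nothing. The median of complex IV ranged from -0.0064 with COXFA4 to 0.037 relative to genes of like span. Relative to like span, also chosen after the data were seen, all subunit genes, complex I and complex V had medians of -0.036, -0.055 and -0.024. In that setting 10 genes were at least 1.1-fold lower, and the share of all genes was not computed. With only probe sets of plain suffix, 44 genes are measurable, and 48.8% of all genes are lower. The median was -0.036, that of complex II, without SDHA, 0.013, and that of complex V -0.013. Of the 44 genes 28 were lower, 11 at least 1.1-fold lower and 2 higher, NDUFA5 and COX5B. Of all genes in that setting 17.4% were at least 1.1-fold lower and 18.5% higher. The median of complex II was -0.0066 with probe sets averaged, under which SDHC was at -0.0065, and -0.11 without SDHA. With no limit on signal 2 of 78 genes were at least 1.1-fold higher, NDUFA5 and COX7A1, where 21.7% of all genes were. At 1.2-fold 4 of 71 genes were lower, against 4.69% of all genes, and at 1.5-fold 0 were lower and 0 higher.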
